A study of Mus musculus with 8 samples.

Results

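VLMC-Col15a1 nuclei are the vascular leptomeningeal cells (VLMCs) that the authors' cell table names after Col15a1, and they were taken here as every nucleus carrying that class name. There were 2434 such nuclei among 44021 in all (5.53%), which made VLMC-Col15a1 the fifth of 17 classes by size. They came from single nucleus RNA sequencing of the visual cortex (VC) of C57BL/6J mice at postnatal day (P)14, in 8 libraries of NeuN-negative nuclei, the fraction left after nuclei carrying this neuronal protein were sorted away. A library held VC tissue from 2 mice of one sex, and each of the 4 groups had 2 libraries, replicate 1 male and replicate 2 female.

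The VGlut2 WT mice carried floxed alleles of the vesicular glutamate transporter VGlut2 (Slc17a6) and no cre. The VGlut2 cKO mice carried the same floxed alleles with a cre expressed from the RORα gene, which the study used to delete VGlut2 from thalamic neurons that project to the VC. The Ip3r2 KO mice lacked the inositol trisphosphate receptor Ip3r2 (Itpr2), the channel behind most calcium release from stores inside astrocytes, in all cells, and the Ip3r2 WT mice were their controls. By the study's methods the Ip3r2 controls were either littermates or other C57BL/6J mice, and 1 WT and 1 mutant sample were processed per day, so that model, mouse line and day of processing cannot be told apart. Levels of single genes were not analysed here. Neither Col15a1 and Col1a2, the markers of the class, nor the deleted genes could therefore be looked at, and the class name is the authors' own.

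VLMCs are fibroblast-like cells of the meninges and of the sheaths around larger brain vessels, where they make much of the collagen of the pial and perivascular matrix. Col15a1 encodes a chain of type XV collagen, a component of basement membrane zones, and Col1a2 encodes a chain of type I collagen, the fibrillar collagen typical of fibroblasts. The comparison classes were VLMC-Slc16a11, named after a member of the monocarboxylate transporter family, with 765 nuclei, and VLMC-Pia, named after the pia, the innermost of the meninges, with 1041 nuclei.

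The libraries held 4767 to 5920 nuclei and 8824112 to 12948023 UMIs (unique molecular identifiers, each standing for 1 captured RNA molecule). The median nucleus had 1343 to 2242 UMIs, depending on the library. Of all nuclei, 475 had a barcode sequence that was also found in another library, among them 29 of the 2434 VLMC-Col15a1 nuclei, and in 1 of the 30 barcode pairs with a VLMC-Col15a1 nucleus both nuclei were VLMC-Col15a1.

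VLMC-Col15a1 was the largest of the 3 VLMC classes in each of the 8 libraries. In the VGlut2 libraries there were 251 (WT male), 290 (cKO male), 241 (WT female) and 266 (cKO female) VLMC-Col15a1 nuclei. In the Ip3r2 libraries there were 331 (WT male), 337 (KO male), 280 (WT female) and 438 (KO female). The Ip3r2 KO female library held the most, and the VGlut2 WT female library the fewest. VLMC-Slc16a11 had 69 to 135 nuclei and VLMC-Pia 78 to 169 nuclei per library.

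Within a library, VLMC-Col15a1 nuclei were on average 3.21 times as many as VLMC-Slc16a11 nuclei, with ratios of 2.55 to 3.99. They were 2.37 times as many as VLMC-Pia nuclei, with ratios of 1.66 to 3.09. Both differences held in 8 of 8 libraries (exact sign flips of the log2 ratios, two-sided p = 0.00781, the smallest that 8 libraries allow, adjusted p = 0.00977 over 10 within-library tests). Class sizes depend on how the authors clustered and named the nuclei, so nothing predicts equal numbers. The p-value for nuclei therefore tells only that the libraries agree in direction. Since WT and mutant samples were processed in pairs, the 8 libraries may not be independent. With the WT and mutant library of each model and sex averaged, the 4 values gave exact p = 0.125, the smallest that 4 allow, for nuclei, UMIs, genes and genes at equal UMIs against both classes, so none of these differences could pass on that count. VLMC-Col15a1 made up 50.1% (Ip3r2 WT female) to 62.1% (VGlut2 WT female) of the VLMC nuclei, with a mean of 57.5% ± 4.24 (SD, n = 8). The lowest and highest of these shares both came from WT female libraries.

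As a share of all nuclei, VLMC-Col15a1 took 4.31% (95% Wilson interval 3.82 to 4.86) in the VGlut2 WT male library and 4.90% (4.38 to 5.48) in the VGlut2 cKO male library. The share was 4.50% (3.97 to 5.09) in the VGlut2 WT female and 4.68% (4.16 to 5.26) in the VGlut2 cKO female library. These intervals, which cover counting error only, overlap for all 4 libraries of the VGlut2 model. In the Ip3r2 model the share was 6.94% (6.26 to 7.70) in WT male, 6.13% (5.53 to 6.80) in KO male, 5.21% (4.65 to 5.84) in WT female and 7.82% (7.14 to 8.55) in KO female. Here the KO library was the lower of the male pair and the higher of the female pair. The standard deviation between libraries was 0.251 percentage points in the VGlut2 model, against 0.278 from counting alone, and 1.12 points in the Ip3r2 model, against 0.339 from counting alone.

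**Figure D1:**
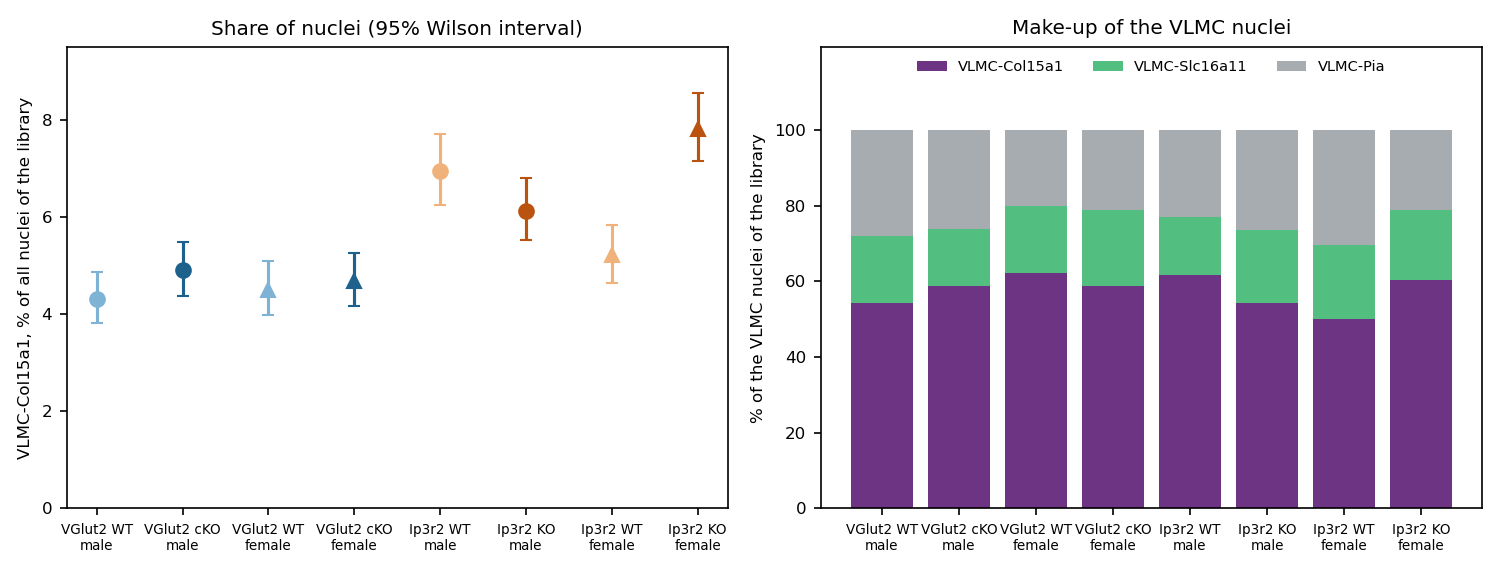
Left, VLMC-Col15a1 nuclei as a percentage of all nuclei of each library (points, with 95% Wilson intervals), by group and sex. Right, the percentage of the VLMC nuclei of each library in each of the 3 VLMC classes (stacked bars). The 4 VGlut2 libraries lie between 4.31% and 4.90% of all nuclei, the 4 Ip3r2 libraries between 5.21% and 7.82%, and VLMC-Col15a1 makes up 50.1% to 62.1% of the VLMC nuclei.

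To ask whether either deletion went with a different abundance of VLMC-Col15a1, the log2 odds of the share were compared with limma over the 17 classes. In the VGlut2 model the share was 4.40% ± 0.131 in WT and 4.79% ± 0.153 in cKO (SD, n = 2 each), a log2 difference of 0.13 (95% interval -0.49 to 0.75, limma adjusted p = 0.980). In the Ip3r2 model it was 6.08% ± 1.23 in WT and 6.97% ± 1.19 in KO (SD, n = 2 each), a log2 difference of 0.22 (-0.40 to 0.84, limma adjusted p = 0.994). None of the 17 classes was called for the VGlut2 cKO (0%) or for the Ip3r2 KO (0%) by limma, edgeR or DESeq2, and 0 and 1 of them had an unadjusted limma p under 0.05. The intervals leave room for rises of the odds and for falls in both models. The VGlut2 effect minus the Ip3r2 effect was -0.09 (-0.97 to 0.79, limma adjusted p = 0.959, 0% of classes called, 1 with an unadjusted p under 0.05), so the mutant effects were not told apart between the models. An exact permutation of 2 libraries against 2 has a smallest two-sided p of 0.333.

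The libraries of the 2 models did not overlap in the share of VLMC-Col15a1. How many of the 17 classes this holds for was not counted. The mean of the Ip3r2 libraries was 6.53% ± 1.12 and that of the VGlut2 libraries 4.60% ± 0.251 (SD, n = 4 each), a ratio of 1.42 (exact permutation of 4 libraries against 4, two-sided p = 0.0286, the smallest possible, adjusted p = 0.08 over 14 measures). Since WT and mutant samples were processed in pairs, the 4 libraries of a model may not be independent. If each pair counted once, an exact permutation of 2 values against 2 has a smallest two-sided p of 0.333. In limma the log2 difference in odds was 0.52 (0.08 to 0.96), and it did not pass after adjustment over the classes (adjusted p = 0.135 in limma, 0.0746 in edgeR, 0.137 in edgeR with TMM factors and 0.410 in DESeq2). No class was called by limma (0%), edgeR or DESeq2, and 4 of 17 had an unadjusted limma p under 0.05, VLMC-Col15a1 among them. VLMC-Slc16a11 took 1.39% ± 0.158 of the nuclei in the VGlut2 and 2.10% ± 0.282 in the Ip3r2 libraries, and VLMC-Pia 1.89% ± 0.374 and 2.86% ± 0.252 (SD, n = 4 each). Neither of these classes overlapped between the models either. Endothelial cells, pericytes and perivascular macrophages did overlap, counted per 100 nuclei outside these and the VLMC classes. Endothelial cells ran from 2.43 to 2.49 in the VGlut2 and from 2.39 to 4.76 in the Ip3r2 libraries. In the same order, pericytes ran from 1.50 to 1.95 and from 1.84 to 2.67, and perivascular macrophages from 2.31 to 2.64 and from 1.47 to 3.20. Among VLMC nuclei alone, VLMC-Col15a1 made up 58.5% ± 3.19 in the VGlut2 and 56.6% ± 5.40 in the Ip3r2 libraries (exact permutation p = 0.6, n = 4 each). Its log2 ratio to VLMC-Slc16a11 differed by -0.10 between the models and that to VLMC-Pia by -0.13 (limma adjusted p = 0.675 for both).

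Ratios among the VLMC classes were also compared between mutant and control. VLMC-Col15a1 nuclei per VLMC-Slc16a11 nucleus numbered 3.28 ± 0.305 in VGlut2 WT, 3.42 ± 0.704 in VGlut2 cKO, 3.27 ± 1.02 in Ip3r2 WT and 3.01 ± 0.325 in Ip3r2 KO (SD, n = 2 each). Per VLMC-Pia nucleus they numbered 2.52 ± 0.809, 2.51 ± 0.370, 2.17 ± 0.731 and 2.46 ± 0.571 in the same order. The group means lie closer together than the libraries of most groups. None of the 3 ratios passed in either model (lowest limma adjusted p = 0.939 for the VGlut2 cKO and 0.819 for the Ip3r2 KO, with 0 unadjusted p under 0.05).

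The female libraries were set against the male ones within each group. The sources used here do not say whether the samples processed on 1 day were of one sex. If they were, sex and day of processing cannot be told apart within a model. The share of VLMC-Col15a1 was higher in the female library in 2 of 4 groups, with a log2 difference of -0.02 (-0.50 to 0.47, limma adjusted p = 0.960, with 0% of classes called and 2 at an unadjusted p under 0.05). The exact sign flips of the 4 differences gave p = 0.875, where the smallest possible is 0.125.

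VLMC-Col15a1 nuclei carried fewer UMIs than the nuclei of the other VLMC classes. Their median was 1228 (WT male), 1081 (cKO male), 1294 (WT female) and 1492 (cKO female) UMIs in the VGlut2 libraries. It was 1743 (WT male), 1918 (KO male), 1866 (WT female) and 1751 (KO female) UMIs in the Ip3r2 libraries. The lowest Ip3r2 library thus lay above the highest VGlut2 library. The medians of VLMC-Slc16a11 ran from 1780 to 2828 UMIs and those of VLMC-Pia from 2060 to 3144 UMIs.

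Within a library, the median of VLMC-Col15a1 was 0.653 times that of VLMC-Slc16a11 (0.607 to 0.678), a log2 difference of -0.61 ± 0.06 (SD, n = 8 libraries, exact sign flips p = 0.00781, adjusted p = 0.00977). It was 0.575 times that of VLMC-Pia (0.478 to 0.629), a log2 difference of -0.80 ± 0.12 (SD, n = 8 libraries, exact sign flips p = 0.00781, adjusted p = 0.00977). Each of the 8 libraries showed both differences. The classes were clustered on the expression of these same nuclei. The within-library p-values for UMIs and genes, here and below, therefore tell only that the libraries agree in direction. Between 4.53% and 12.9% of VLMC-Col15a1 nuclei, depending on the library, exceeded the VLMC-Slc16a11 median, and 0.345% to 6.79% exceeded the VLMC-Pia median. VLMC-Col15a1 gave 3.34% to 6.55% of the UMIs of a library, in each library less than its share of the nuclei.

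Detected genes followed the same order. The median VLMC-Col15a1 nucleus had 795, 723.5, 837 and 939.5 genes in the VGlut2 WT male, cKO male, WT female and cKO female libraries. It had 1072, 1155, 1110.5 and 1029.5 genes in the Ip3r2 WT male, KO male, WT female and KO female libraries. The log2 difference was -0.35 ± 0.06 from VLMC-Slc16a11 and -0.61 ± 0.10 from VLMC-Pia (SD, n = 8 libraries each, exact sign flips p = 0.00781, adjusted p = 0.00977 for both), lower in 8 of 8 libraries.

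The order of the classes changed once nuclei with like UMI counts were compared. Nuclei were sorted into bins 0.25 log2 units of UMIs wide, and the mean log2 number of genes was compared within bins. At equal UMIs, VLMC-Col15a1 nuclei had 1.06 times the genes of VLMC-Slc16a11 nuclei (1.05 to 1.08), a log2 difference of 0.09 ± 0.01 that was positive in 8 of 8 libraries. Against VLMC-Pia they had 0.973 times the genes (0.947 to 0.990), a log2 difference of -0.04 ± 0.02 that was negative in 8 of 8 libraries (SD, n = 8 libraries, exact sign flips p = 0.00781, adjusted p = 0.00977 for both classes). So at equal UMIs VLMC-Col15a1 lay above VLMC-Slc16a11, which it lies below in plain medians. The difference from VLMC-Pia was -0.02 when a line was fitted to genes against UMIs, compared with -0.04 from bins. Bins of 0.1 log2 units, chosen after seeing the data, gave -0.03. Against VLMC-Slc16a11 the fitted line and the narrower bins both gave 0.10. UMIs can still differ between the classes within a bin, and how far this enters the differences was not tested.

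**Figure D2:**
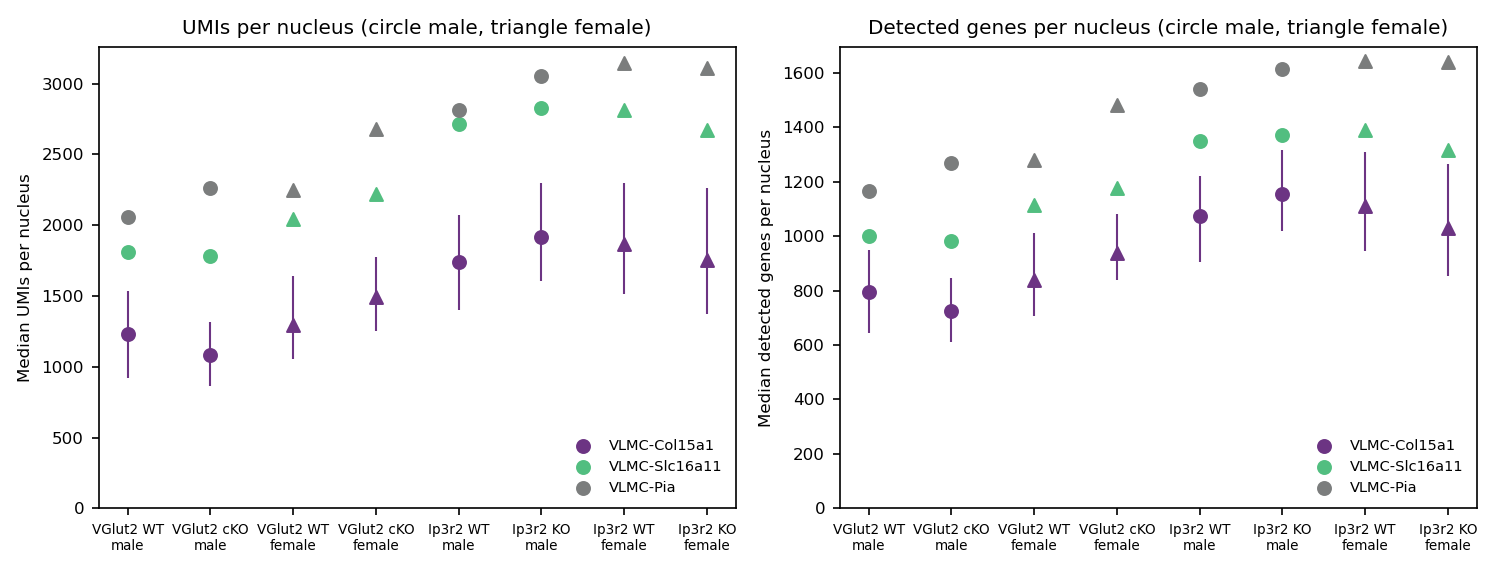
Median UMIs (left) and median detected genes (right) per nucleus in each library for the 3 VLMC classes (circles male, triangles female), with vertical lines from the lower to the upper quartile of VLMC-Col15a1. In each library VLMC-Col15a1 is the lowest class and VLMC-Pia the highest, and the VLMC-Col15a1 medians run from 1081 to 1918 UMIs.

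**Figure D3:**
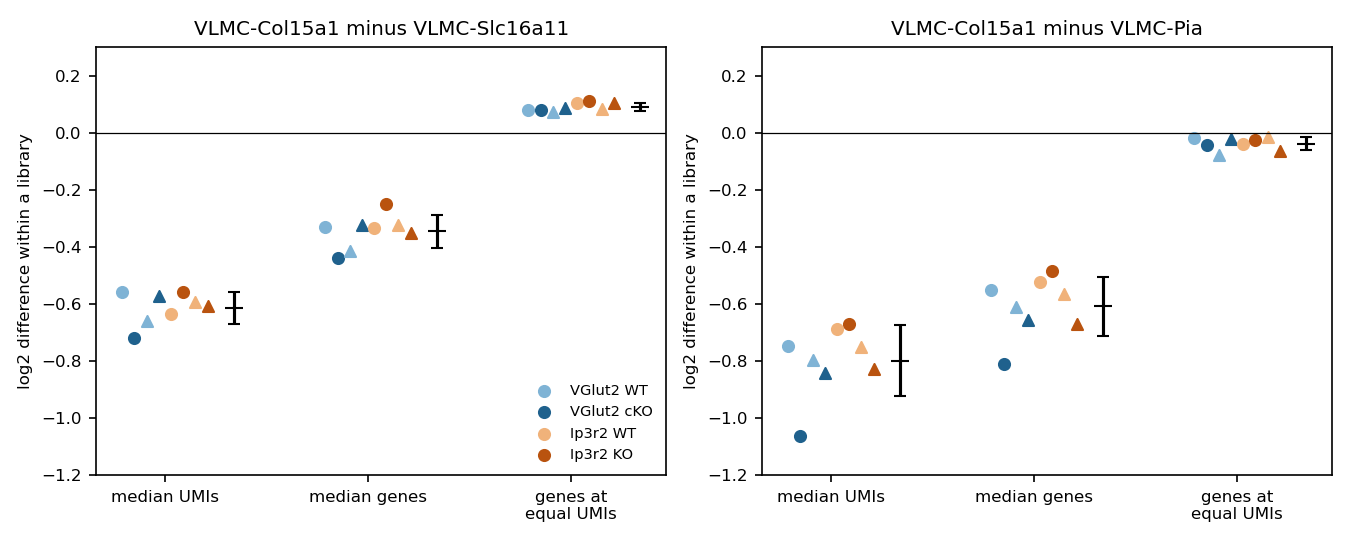
Log2 difference of VLMC-Col15a1 from VLMC-Slc16a11 (left) and from VLMC-Pia (right) within each library (circles male, triangles female, colours by group), with the mean and SD over 8 libraries in black. For genes at equal UMIs the points lie above 0 on the left and below 0 on the right, while those for medians of UMIs and genes lie below 0 on both sides.

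Neither deletion went with a called difference in the depth of VLMC-Col15a1 nuclei. The mean of the library medians was 1261 ± 46.7 UMIs in VGlut2 WT and 1287 ± 291 in VGlut2 cKO, where the male library lay below and the female above both WT libraries (SD, n = 2 each). It was 1804 ± 86.6 UMIs in Ip3r2 WT and 1835 ± 118 in Ip3r2 KO (SD, n = 2 each). On the log2 scale the differences were 0.01 (-0.38 to 0.40, limma adjusted p = 0.960) and 0.02 (-0.37 to 0.42, limma adjusted p = 0.99995). For genes they were 0.02 (-0.30 to 0.33, adjusted p = 0.923 in limma) and -0.00084 (-0.32 to 0.31, adjusted p = 0.996 in limma). Of the 15 classes that had 20 or more nuclei in each library, 0% were called for UMIs or for genes in either model, and 0 had an unadjusted p under 0.05.

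Between the models, the median UMIs of VLMC-Col15a1 were 1.43 times as high in the Ip3r2 libraries, at 1819 ± 86.3 against 1274 ± 171 (SD, n = 4 each, exact permutation p = 0.0286, the smallest possible, adjusted p = 0.08). The limma log2 difference was 0.52 (0.25 to 0.80, adjusted p = 0.00159) for UMIs and 0.41 (0.19 to 0.63, adjusted p = 0.00178) for genes. All tests between models here count the 4 libraries of a model as independent, which libraries processed in pairs may not be. The higher depth was a property of nearly every class, since 14 of 15 classes (93.3%) were called for UMIs and 14 of 15 (93.3%) for genes. The median of all other nuclei of a library was 2110 ± 162 UMIs in the Ip3r2 and 1612 ± 229 in the VGlut2 libraries (SD, n = 4 each). Taken relative to those other nuclei, VLMC-Col15a1 had 0.864 ± 0.0405 of their median in the Ip3r2 and 0.791 ± 0.0120 in the VGlut2 libraries (SD, n = 4 each). The relative values still did not overlap (exact permutation p = 0.0286, adjusted p = 0.08), and how many of the 15 classes did so was not counted. On the log2 scale, VLMC-Slc16a11 ran from 0.25 to 0.42 in the VGlut2 and from 0.34 to 0.54 in the Ip3r2 libraries. VLMC-Pia ran from 0.47 to 0.78 and from 0.51 to 0.64, so both of these classes overlapped. Astrocytes did not overlap, in the other direction, at 0.53 to 0.63 in the VGlut2 and 0.36 to 0.51 in the Ip3r2 libraries. The limma difference of 0.13 (-0.03 to 0.28, adjusted p = 0.318) was not called, nor was any of the 15 classes (0%, with 3 at an unadjusted p under 0.05). Relative to the library, 0% of classes were called for the VGlut2 cKO and 0% for the Ip3r2 KO.

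Between the sexes, the log2 difference of VLMC-Col15a1, female minus male, was 0.13 (-0.12 to 0.37, limma adjusted p = 0.555) for UMIs and 0.08 (-0.12 to 0.29, limma adjusted p = 0.743) for genes. It was -0.06 (-0.24 to 0.11, limma adjusted p = 0.712) for UMIs relative to the library. Each of these fits called 1 of 15 classes (6.67%), NeuronLike-Gad1, and not VLMC-Col15a1. The relative UMIs of VLMC-Col15a1 were lower in the female library in 4 of 4 groups (exact sign flips p = 0.125, the smallest possible).

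The mitochondrial share of the UMIs of VLMC-Col15a1 varied little. It was 4.11%, 4.15%, 4.14% and 3.99% in the VGlut2 WT male, cKO male, WT female and cKO female libraries. It was 4.16%, 4.10%, 4.07% and 4.02% in the Ip3r2 WT male, KO male, WT female and KO female libraries. The share in all other nuclei of a library ran from 3.72% to 3.92%, and VLMC-Col15a1 lay above it in each library. VLMC-Slc16a11 and VLMC-Pia also lay above that value in each library. With the libraries pooled, VLMC-Col15a1 (4.08%) ranked 8 of 17 classes from the highest share, below astrocytes (4.27%) and microglia (4.26%). VLMC-Col15a1 was lower than VLMC-Slc16a11 by 0.122 ± 0.136 percentage points, in 6 of 8 libraries (SD, n = 8, exact sign flips p = 0.0547, adjusted p = 0.0608). The difference from VLMC-Pia was 0.0834 ± 0.141 points, positive in 6 of 8 libraries (SD, n = 8, exact sign flips p = 0.117, adjusted p = 0.117). Neither passed the threshold. With limma, 0% of the 15 classes were called for the mitochondrial share in the VGlut2 cKO, the Ip3r2 KO, the models or the sexes, with 0, 0, 2 and 2 classes at an unadjusted p under 0.05. The log2 differences of VLMC-Col15a1 lay between -0.03 and -0.0036 in these contrasts.

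VLMC-Col15a1 nuclei ranged from 251 to 5319 UMIs and from 220 to 2292 genes, with 1567 UMIs and 971.5 genes in the median nucleus. The spread of log2 UMIs within a library was 0.44 to 0.62 (SD), beside 0.36 to 0.57 in VLMC-Slc16a11 and 0.41 to 0.54 in VLMC-Pia. There were 93 nuclei (3.82%) with fewer than 500 genes. They made up 10.4% of VLMC-Col15a1 in VGlut2 WT male, 7.24% in cKO male, 6.22% in WT female and 2.63% in cKO female. In the Ip3r2 libraries they made up 1.81% in WT male, 1.19% in KO male, 0.714% in WT female and 2.74% in KO female. The shares of the models overlap only in that the Ip3r2 KO female library lay above the VGlut2 cKO female library (exact permutation p = 0.0571, adjusted p = 0.114, n = 4 each). In VLMC-Slc16a11 there were 10 such nuclei of 765 (1.31%, 0% to 4.05% by library), and in VLMC-Pia 7 of 1041 (0.672%, 0% to 2.33% by library). The share was higher in VLMC-Col15a1 than in VLMC-Slc16a11 in 6 of 8 libraries, the VGlut2 cKO female and Ip3r2 WT female libraries being the exceptions, and higher than in VLMC-Pia in 8 of 8. These shares were not tested.

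The authors' UMAP, a map that places nuclei with like expression side by side, was used to describe where the class lies. It was drawn from the expression values the classes were clustered on, so these figures are a description and no test. Of the 15 nearest neighbours of a VLMC-Col15a1 nucleus, 99.6% were VLMC-Col15a1 (99.1% to 99.9% by library), 0.392% VLMC-Slc16a11 and 0.0137% VLMC-Pia. EC (endothelial cells), PC (pericytes) and PVM (perivascular macrophages), the classes of the vessel wall and its sheath, gave 0 neighbours. Only 6 of 2434 nuclei had fewer than 50% of their neighbours in their own class. The class centre was nearest to that of VLMC-Slc16a11, 3.72 units away, while VLMC-Pia was 15.7 units away and the ninth in order. On the authors' t-SNE map VLMC-Slc16a11 was again the nearest class and VLMC-Pia the tenth. Distances between separate islands of such maps carry no scale. Neighbours came from the same library in 13.9% of cases, beside 13.0% if libraries were mixed at random within the class. The authors corrected for batch with Scanorama before clustering, so this value does not test whether the libraries agree.

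Within VLMC-Col15a1, UMIs increased along the first UMAP axis. The median was 454 UMIs in the 33 nuclei between 10 and 11 on that axis, 1164 in 297 nuclei between 11 and 12, 1470.5 in 838 between 12 and 13, 1677.5 in 1024 between 13 and 14 and 2150 in 242 between 14 and 15. Of the 33 nuclei between 10 and 11, 24 (72.7%) had fewer than 500 genes. The 330 nuclei below 12 held 70 of the 93 such nuclei (75.3%). Spearman's rho between UMIs and the axis was 0.30 to 0.62 within the 8 libraries, over nuclei that share a library. The gradient was not particular to this axis, since rho with the second UMAP axis was 0.33 to 0.55. On the t-SNE map it was -0.37 to -0.09 with the first axis and -0.74 to -0.50 with the second. The part below 12 held 14.3%, 17.6%, 11.2% and 3.38% of VLMC-Col15a1 in the VGlut2 WT male, cKO male, WT female and cKO female libraries. It held 10.9%, 9.5%, 11.1% and 24.7% in the Ip3r2 WT male, KO male, WT female and KO female libraries. The Ip3r2 KO female library, which had the highest share of VLMC-Col15a1, also had the highest share of it below 12. It had 108 nuclei there, while 12 of its VLMC-Col15a1 nuclei in all had fewer than 500 genes. A link between the shares was not tested.

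**Figure D4:**
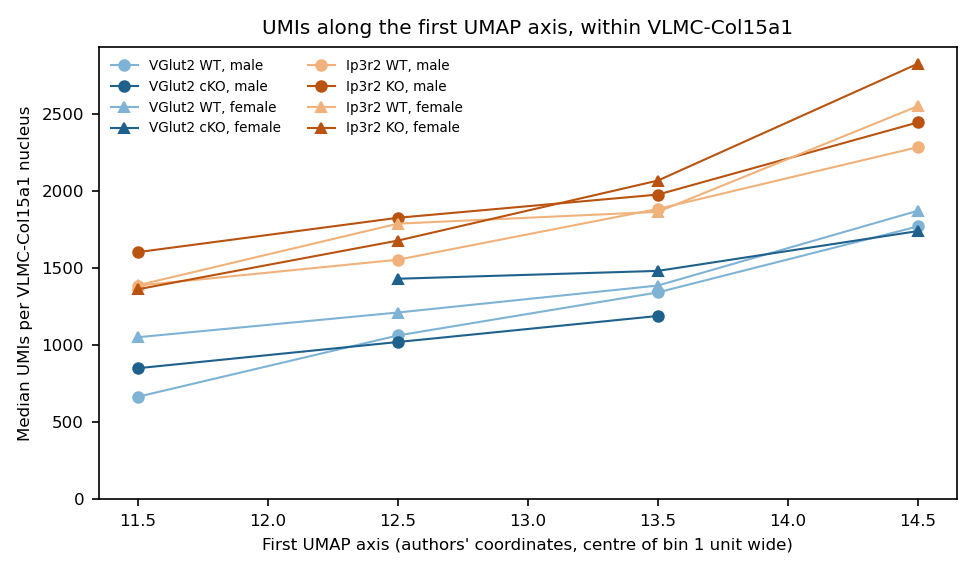
Median UMIs per VLMC-Col15a1 nucleus in bins 1 unit wide along the authors' first UMAP axis, 1 line per library (bins with at least 20 nuclei, circles male, triangles female). Within each library the median is higher in the rightmost than in the leftmost bin drawn, and the 4 Ip3r2 lines run above the 4 VGlut2 lines.

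Last, the abundance of VLMC-Col15a1 was compared across libraries with that of the other VLMC classes, EC, PC and PVM, each per 100 nuclei outside these 6 classes. VLMC-Col15a1 numbered 5.0 to 9.75 per 100 such nuclei. With VLMC-Slc16a11, which numbered 1.45 to 3.0, Pearson's r was 0.82 (exact permutation p = 0.0137, adjusted p = 0.0683 over 5 classes, n = 8) and Spearman's rho 0.76 (exact permutation p = 0.0368, adjusted p = 0.160). Without the 2 libraries farthest from the median r was 0.88 (exact permutation p = 0.0194, adjusted p = 0.0972, n = 6). Taken as deviations from the mean of each model, r was 0.38 (exact permutation within models, p = 0.561). Within the models the relation did not pass the test. For VLMC-Pia, EC, PC and PVM the pooled r was 0.66, 0.53, 0.75 and 0.59, and the values from deviations were -0.32, 0.14, 0.36 and 0.94 (exact permutation adjusted p from 0.0815 to 0.165 pooled and from 0.182 to 0.865 within models). None of the 5 relations passed the threshold. For PVM, r was -0.17 without the 2 farthest libraries, so its pooled value rests on them. All these classes share the library they were counted in.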

How the data were processed

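Nuclei were isolated from frozen VC, sorted and barcoded with the 10x Chromium kit (8 libraries). Reads were processed with Cell Ranger on mm10, per the submitters' processing notes. The authors dropped barcodes under 200 genes, removed doublets with Scrublet, corrected for batch with Scanorama, clustered by the Leiden method in Scanpy and named clusters from marker genes, as the methods of the study state. The deposited table gives, per nucleus, counts of UMIs and genes, not normalized. The mitochondrial value was deposited as a fraction of UMIs (times UMIs it was whole within 0.001 in 44021 of 44021 nuclei). The embedding coordinates are scores as the authors deposited them. Which genes it counts is not given in the sources used here. Group and sex were the same in the table and in GEO's labels for 8 of 8 libraries.

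The 4 astrocyte groups of the 20 class names were joined, which left 17 classes. Shares were compared as log2 odds with 0.5 added, and UMIs and genes as log2 library medians, with limma (3.58.1, R 4.3.3), 1 mean per group over all 8 libraries, Benjamini-Hochberg adjustment over classes and a threshold of 0.05. edgeR (4.0.16) and DESeq2 (1.42.0) on tallies of nuclei were alternatives. In fits of UMIs, genes and mitochondrial share, the standard error from limma was the same for each class, and the classes share their libraries, so that its p-values are smaller than 8 libraries alone would give. The ratios among the VLMC classes also shared a standard error in their fit, and all of them use the same VLMC-Col15a1 counts. Differences within libraries and between models were tested by exact sign flips and exact permutations, two-sided, enumerated in Python (3.11.15) with numpy (2.4.6). Wilson intervals and correlation coefficients came from scipy (1.17.1). Mitochondrial percentages were compared as log2 with 0.05 added. Scripts were tested on simulated data. VLMC classes are named throughout, and EC, PC and PVM in correlations, neighbours and the overlap of shares between models. Other classes are named only where called or over 5% of neighbours, except astrocytes in relative UMIs. The classes named for overlap between models were chosen after seeing the data. The class, the comparison classes and the tests were chosen with earlier results of these data known. The spread between the libraries of a group holds animal, sex and technical variation.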

Additional observations from a re-analysis of the deposited data

Results flagged for a closer look

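In VGlut2 cKO male, the median UMIs of VLMC-Col15a1 lay further below those of VLMC-Pia than in the other libraries, with a log2 difference of -1.06 where the other 7 libraries ran from -0.84 to -0.67. The gap to the nearest library was 0.56 of the whole range. This was 1 of 30 sets of values looked at, and chance alone marks about 1 in 20. The same library had the lowest median UMIs of VLMC-Col15a1, 1081, while its VLMC-Pia median of 2260 was not the lowest. Without it the difference between the classes was -0.76, in the same direction in each of the remaining libraries.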

How the results depend on the processing

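Of 521 recomputed values of 45 results, 441 kept their direction and their side of the threshold, and no called difference turned its direction. Part of this agreement was fixed in advance. Leaving out a library of the other model cannot move a mutant effect, and a balanced block for sex cannot move a group difference. A within-library difference with the same sign in each of the 8 libraries cannot turn when libraries are left out. The 57 reversals were of results that were not called, 55 of them differences between groups of libraries and the others the correlations with VLMC-Pia and PVM, and their cause was not tested. The exact tests within libraries rest on 8 libraries, or on 4 values where WT and mutant of the same model and sex are averaged, and 2 libraries per group leave wide intervals for the deletions.

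The differences of VLMC-Col15a1 from the other VLMC classes within libraries kept their direction in each model alone, where 4 libraries cannot go below p = 0.125 (exact sign flips). In the VGlut2 libraries alone the log2 differences from VLMC-Slc16a11 were 1.73 for nuclei, -0.63 for UMIs, -0.38 for genes and 0.080 for genes at equal UMIs, and from VLMC-Pia 1.31, -0.86, -0.66 and -0.041. In the Ip3r2 libraries alone they were 1.63, -0.60, -0.32 and 0.10, and 1.18, -0.73, -0.56 and -0.037. With nuclei of at least 1000 UMIs, the mitochondrial difference from VLMC-Slc16a11 passed the threshold at -0.141 points (exact sign flips adjusted p = 0.0434). Bins of 0.1 log2 units, chosen after seeing the data, gave 0.10 and -0.03 for genes at equal UMIs.

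Relative to the other nuclei of the library, the differences between models were no longer called (0.13 for UMIs, 0.10 for genes). On that scale the differences in UMIs were -0.028 for the VGlut2 cKO, -0.0075 for the Ip3r2 KO and -0.062 for the sexes, and those in genes -0.019 for the VGlut2 cKO and -0.039 for the sexes. With nuclei of at least 500 genes the VGlut2 cKO difference in UMIs was -0.018 and the Ip3r2 KO difference in genes 0.0091, and library means of log2 values gave 0.0090 for the latter. The difference of the mutant effects on the share was 0.035 in edgeR with TMM factors. The sex difference of the share was 0.023 in DESeq2 and 0.057 with nuclei of at least 1000 UMIs. With those nuclei the model differences of the ratios to VLMC-Slc16a11 and VLMC-Pia and of the share of VLMC nuclei were 0.20, 0.22 and 0.21, and the sex difference of the ratio to VLMC-Slc16a11 was 0.013. The correlation with VLMC-Pia was -0.32 from deviations within models, an alternative chosen after seeing the data, and that with PVM -0.17 without the 2 farthest libraries. The share of own-class neighbours was 99.3% with 50 neighbours, and 99.3%, 99.3% and 99.1% on the t-SNE map with 15, 5 and 50.

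Leaving out 1 library at a time, where a group left with 1 library was assumed to vary like the others, the share differed by -0.0039 to 0.44 for the Ip3r2 KO, by -0.31 to 0.13 between mutant effects and by -0.15 to 0.12 between sexes. The ratio to VLMC-Slc16a11, the ratio to VLMC-Pia and the share of VLMC nuclei ran from -0.16 to 0.26, -0.31 to 0.36 and -0.20 to 0.26 for the VGlut2 cKO. They ran from -0.41 to 0.24, -0.15 to 0.55 and -0.26 to 0.42 for the Ip3r2 KO, and from -0.26 to 0.059, -0.30 to 0.048 and -0.28 to 0.057 between models. The share of VLMC nuclei ran from -0.11 to 0.27 between sexes. UMIs ran from -0.22 to 0.24 for the VGlut2 cKO and from -0.042 to 0.089 for the Ip3r2 KO, and genes from -0.17 to 0.20, from -0.084 to 0.082 and, between sexes, from -0.014 to 0.17. The mitochondrial share ran from -0.049 to 0.0076 for the VGlut2 cKO and from -0.018 to 0.011 between models.

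A replicate block for sex, which is the replicate number here, left each estimate as it was and changed no call (share: VGlut2 cKO 0.13, Ip3r2 KO 0.22, models 0.52). Deviations of same-sex libraries correlated at 0.54 (VGlut2) and 0.27 (Ip3r2) over 17 classes. For VLMC-Col15a1 itself they had opposite signs. The male libraries deviated by -0.032 (WT) and 0.034 (cKO) in the VGlut2 model, and by 0.22 (WT) and -0.19 (KO) in the Ip3r2 model. Not run were sex as a block for the sex comparison, where it is the tested term, and correlations within each model, which has 4 libraries.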
